A study of Mus musculus with 8 samples.

Results

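The collagen genes of embryonic mouse skin were taken as every transcript cluster whose platform annotation gave exactly 1 symbol made of Col, a number, the letter a and a second number, as in Col1a1. This gave 46 of 35556 transcript clusters and 44 of 19938 genes, with the brightest cluster standing for Col6a5 and Col6a6, which each had a pair. RNA came from full-thickness skin of embryos at E17.5 and was hybridised to 8 whole-transcript Affymetrix arrays, 1 per RNA. Wildtype embryos gave 4 of these (control), and embryos labelled PpargΔ/Δ or PPARgamma null gave the other 4 (labelled-null arrays), and all 8 came from mice of background Mixed C57BL6/SV129. The Pparg product, PPARgamma, is a nuclear receptor needed to form adipocytes. The labels name no litter, sex or Cre driver and do not say which part of Pparg was deleted. They call the RNAs individual without saying that each came from another embryo, so p-values measure only the spread between these samples.

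Collagens are secreted proteins whose chains wind into a long helix. Fibrillar collagens pack into the fibres that give dermis its tensile strength. Network collagens form the sheet-like basement membrane under the epidermis and around vessels, fat and nerves, and anchoring collagens tie the epidermis to the dermis below. Cartilage has collagens of its own. In dermis, fibroblasts make most of the fibrillar collagen, and adipocytes surround themselves with a basement membrane.

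The skin markers were bright on every array. The mean log2 value of 7 dermal fibroblast markers ran from 11 to 11.13 on control arrays and from 10.98 to 11.11 on labelled-null arrays. The mean of 7 epidermal markers, among them Krt5 and Krt10, ran from 12.08 to 12.24 and from 12.10 to 12.31. Of the 7 dermal fibroblast markers, 3 lay below and 4 above control, with a median difference of 0.01. Among them Dcn, Pdgfra, Dpt and Thy1 differed by 0.01, 0.05, -0.09 and -0.10. The groups did not overlap for 1 of the 7, Dpt, beside 2.32% of all genes. The Pparg cluster gave no lower values on labelled-null arrays, with 8.79, 8.88, 9.04 and 9.06 on control arrays 1 to 4 and 9.14, 9.19, 9.19 and 8.98 on labelled-null arrays 1 to 4 (difference 0.18, limma adjusted p = 0.9995). Since the deleted part is not named, this cluster cannot check the labels, and directions follow the labels. Values of different transcript clusters depend on their probes and are not set against each other below.

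No collagen gene passed the threshold of a limma adjusted p of 0.05. Of the 44 genes, 43 lay above the 30th percentile of every array and were tested, and 0 passed, beside 0.119% of all tested genes (18 of 15174). An unadjusted limma p under 0.05 was found for 4 of the 43 (9.3%), beside 3.61% of all tested genes. Col15a1, Col9a1 and Col25a1 were lower among these (2.1% of all tested genes), and Col8a2 was higher (1.51%). The groups did not overlap for 1 of 44 genes, Col15a1, beside 2.32% of all genes (1.48% in the lower direction). The mean was lower on labelled-null arrays for 29 of 44 genes, beside 49.4% of all genes, and differed by at least 0.10 in size for 8 of 44, beside 19.3%. The median log2 difference over the 44 genes was -0.01, and over all genes 0.00. In bulk skin, fewer cells of a type and less RNA per cell cannot be told apart.

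The intervals show how large a difference could have gone unseen. For all 43 tested collagen genes the 95% confidence interval of the difference lay within a 1.5-fold change in either direction, as it did for 98.1% of all tested genes. For 34 of them it lay within 1.2-fold, where the share of all tested genes was 74.5%. The other 9 were Col5a1, Col5a2, Col8a1, Col8a2, Col9a1, Col15a1, Col24a1, Col25a1 and Col26a1. The plot of differences shows that the intervals of most members cross 0.

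**Figure D1:**
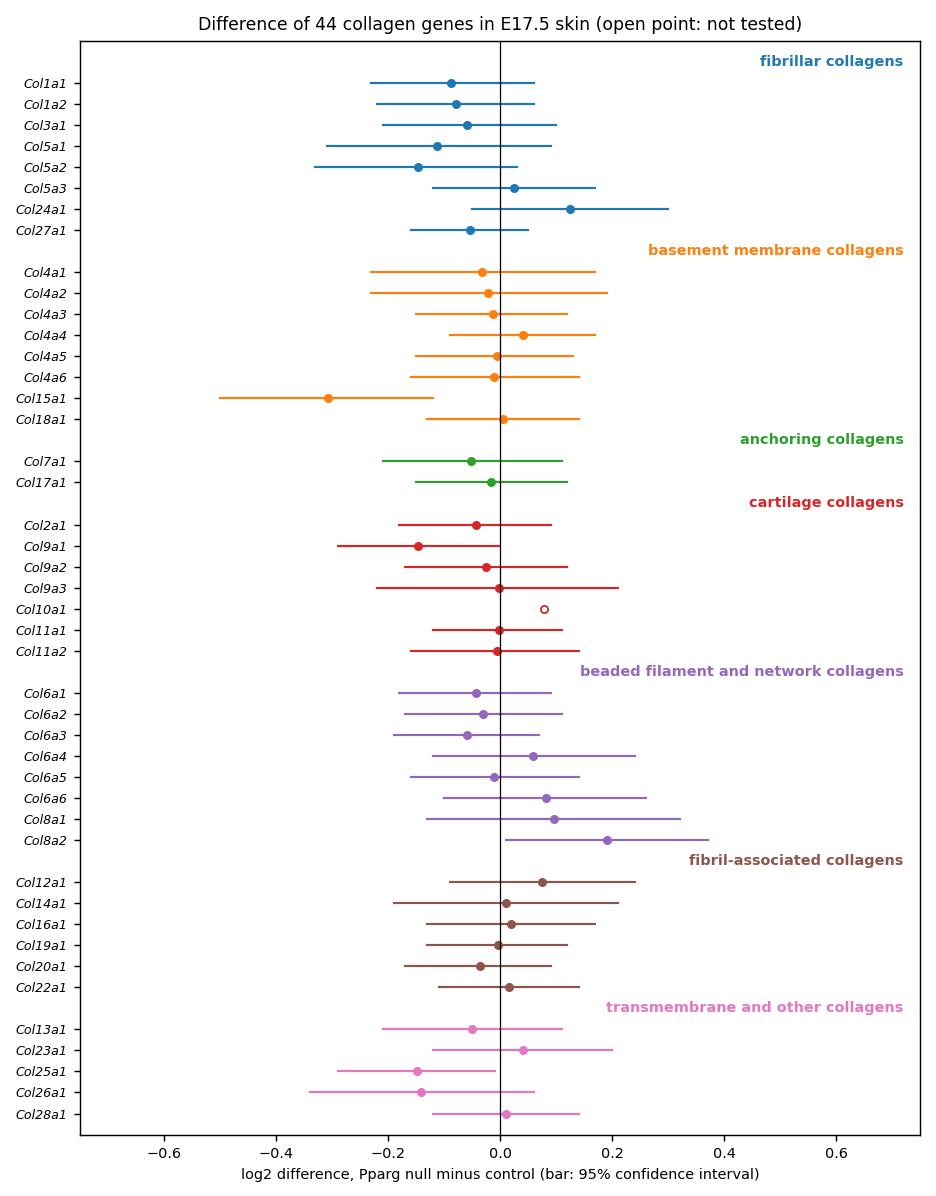
Log2 difference (labelled Pparg null minus control) of the 44 collagen genes on the horizontal axis, by class, with bars for the 95% confidence interval of the limma fit; Col10a1, drawn open, was not tested. Col15a1, at -0.31, lies farthest from 0, and Col8a2, at 0.19, is the highest.

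The groups overlapped for every fibrillar collagen, and no member of the class passed the threshold. Of the 8 genes, 6 lay below and 2 above control, with a median log2 difference of -0.07. Col1a1 encodes one chain of type I collagen, the main fibre of dermis, and read 12.56, 12.70, 12.68 and 12.73 on control arrays 1 to 4 and 12.65, 12.59, 12.65 and 12.44 on labelled-null arrays 1 to 4. The groups overlapped, with labelled-null array 4 lowest and control array 1 next. The difference of Col1a1 was -0.09 (SE 0.064, 95% confidence interval -0.23 to 0.06, limma adjusted p = 0.9995). The lower limit of this interval is a 1.17-fold fall in the array value. Without labelled-null array 4 the difference of Col1a1 was -0.04, and without control array 1 it was -0.12. Col1a2, the partner chain in type I collagen, read 12.27, 12.38, 12.31 and 12.41 in control skin and 12.38, 12.27, 12.27 and 12.14 on labelled-null arrays 1 to 4. It differed by -0.08 (95% confidence interval -0.22 to 0.06), and again labelled-null array 4 was lowest. Without that array Col1a2 differed by -0.04, and without labelled-null array 1 by -0.12. Col3a1, whose type III collagen is abundant in fetal dermis, read 11.92, 12.07, 11.93 and 12.02 in control skin and 12.01, 11.94, 12.01 and 11.75 on labelled-null arrays. Without labelled-null array 4 the difference of Col3a1 went from -0.06 to 0.00, and without labelled-null array 1 it was -0.09.

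Type V collagen sits in the core of type I fibrils and limits their width. Its Col5a2 chain had the smallest unadjusted p of the fibrillar class (0.0962). Col5a2 read 9.79, 10.03, 9.95 and 10.08 on control arrays 1 to 4 and 9.89, 9.77, 9.93 and 9.66 on labelled-null arrays 1 to 4, a difference of -0.15 (95% confidence interval -0.33 to 0.03; limma adjusted p = 0.9995). The groups overlapped through control array 1, which read below labelled-null arrays 1 and 3. Col5a1 differed by -0.11 and Col5a3 by 0.02. Col24a1, a fibrillar collagen of developing bone and cornea, read 6.99, 6.96, 6.83 and 6.94 in control skin and 7.01, 7.01, 6.92 and 7.27 on labelled-null arrays, a difference of 0.13 (limma adjusted p = 0.9995). Its highest value, on labelled-null array 4, was on the array where the type I chains were lowest, and without that array the difference was 0.05. Col27a1, the remaining fibrillar gene, differed by -0.05.

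Promoter windows of the type I and type III genes are shown because these genes make up the main dermal fibre. Sequences are the 250 bases before the RefSeq start on build GRCm38.p6, 5′ to 3′ on the gene's strand, with matches on either strand in capitals to the TATA box (TATAAA), the CCAAT box (CCAAT), the GC box (GGGCGG) or the core nuclear receptor motif (AGGTCA). Col1a1 was not among the 35 collagen genes with a window. Col1a2 lies at chr6:4505368-4505617, plus strand, Col3a1 at chr1:45311288-45311537, plus strand.
Col1a2: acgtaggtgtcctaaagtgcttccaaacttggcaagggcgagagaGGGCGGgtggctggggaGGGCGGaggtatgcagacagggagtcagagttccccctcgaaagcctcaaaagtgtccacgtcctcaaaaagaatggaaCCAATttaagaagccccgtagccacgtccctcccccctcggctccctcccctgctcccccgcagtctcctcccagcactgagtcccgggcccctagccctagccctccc
Col3a1: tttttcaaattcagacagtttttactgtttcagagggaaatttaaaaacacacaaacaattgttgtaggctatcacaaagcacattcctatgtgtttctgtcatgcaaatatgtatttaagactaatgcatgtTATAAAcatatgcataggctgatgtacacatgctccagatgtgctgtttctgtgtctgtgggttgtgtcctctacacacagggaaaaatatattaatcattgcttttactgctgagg
The Col1a2 window held GGGCGG in 2 places and CCAAT in 1, and the Col3a1 window held TATAAA in 1. Over the 38 collagen windows, GGGCGG, the core of the GC box, was found in 57.9%, beside 32.7% of all 32851 promoter windows of the same length. CCAAT was found in 34.2% beside 33.8%, and TATAAA in 13.2% beside 12.4%. AGGTCA, the core motif that PPARgamma and its partner RXR read in a direct repeat, was found in 21.1% of collagen windows and 14.0% of all windows. Its direct repeat with 1 base between the copies was found in 0 of the 38 collagen windows and 0.0335% of all windows; a match to the repeat counts under AGGTCA too. A match describes letters in the window and no binding.

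Among basement membrane collagens no gene passed the threshold, and the groups overlapped for all but Col15a1. Of the 8 genes, 6 lay below and 2 above control, with a median log2 difference of -0.01. Col15a1 encodes type XV collagen, which lies at the outer face of basement membranes of vessels, muscle, nerve and fat. It read 9.17, 9.24, 9.10 and 9.40 on control arrays 1 to 4 and 8.99, 8.77, 9.08 and 8.84 on labelled-null arrays 1 to 4. Groups did not overlap for 1 of the 44 collagen genes (2.27%), beside 2.32% of all genes. All 4 control values of Col15a1 lay above all 4 others, with the nearest pair, control array 3 and labelled-null array 3, at 9.10 and 9.08. The means were 9.23 ± 0.13 and 8.92 ± 0.14 (SD, n = 4 each), a difference of -0.31 (SE 0.085, 95% confidence interval -0.50 to -0.12). The unadjusted limma p was 0.00495 and the limma adjusted p 0.8107, so the gene missed the threshold over all genes. Leaving out each array in turn gave differences of -0.36 to -0.25, nearest 0 without control array 4, with adjusted p of 0.597 to 1.

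Adipocyte markers were measured beside Col15a1. Of 7 listed markers 6 had a cluster and 5 were tested. Cd36, Fabp4 and Lpl passed over all genes and fell, where 0.119% of all tested genes passed in either direction. Plin1 (limma adjusted p = 0.1277) and Cidec (limma adjusted p = 0.9995, groups overlapping) did not pass, and Adipoq was under the brightness filter. The groups did not overlap for 5 of the 6, the dim Adipoq among them, beside 2.32% of all genes. The mean log2 value of the 6 markers ran from 7.91 to 8.29 in control skin and from 7.23 to 7.47 on labelled-null arrays. Their part in the Col15a1 difference was not tested. Endothelial markers, another site of type XV collagen, had a median difference of 0.00 over 6 genes, 3 lower and 3 higher. They ran from -0.08 (Kdr) to 0.20 (Emcn). Skeletal muscle markers had a median of -0.03 over 7 genes (-0.07 to 0.10), and Schwann cell markers -0.01 over 3 genes (-0.02 to 0.01). The Col15a1 window (chr4:47207762-47208011, plus strand) is shown because it belongs to the gene whose groups separated; it held no match to the motifs searched, which says only that these letters are not in it.
Col15a1: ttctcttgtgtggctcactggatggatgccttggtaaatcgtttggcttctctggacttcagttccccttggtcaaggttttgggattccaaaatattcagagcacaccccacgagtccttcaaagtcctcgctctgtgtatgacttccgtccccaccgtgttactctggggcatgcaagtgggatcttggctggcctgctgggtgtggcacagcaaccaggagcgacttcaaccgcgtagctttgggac

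Col4a1 and Col4a2, the chains of the type IV network found in nearly all basement membranes, changed little and moved together. Col4a1 read 9.13, 9.32, 9.18 and 9.33 on control arrays 1 to 4 and 9.38, 9.13, 9.33 and 9.0 on labelled-null arrays 1 to 4. Col4a2 read 9.07, 9.24, 9.18 and 9.31 and then 9.35, 9.14, 9.30 and 8.92. In both genes labelled-null array 1 was highest and labelled-null array 4 lowest, so the group labelled Pparg null held both ends of the range. The differences were -0.03 (95% confidence interval -0.23 to 0.17) and -0.02 (-0.23 to 0.19), and without labelled-null array 4 they were 0.04 and 0.06. These genes point away from each other from overlapping starts: RefSeq places the start of Col4a2 on the plus strand at position 11312805 and that of Col4a1 on the minus strand at 11312826 of chromosome 8 (GRCm38.p6). The 22 bases between and including these starts (chr8:11312805-11312826, plus strand), with a GGGCGG match in capitals, are printed because both transcripts begin within them.
Col4a1 and Col4a2 starts: agtgcgcGGGCGGcgtctccaa

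The other type IV chains, which replace these in specialised membranes, differed by at most 0.04. Col4a4 read 6.40, 6.39, 6.20 and 6.39 in control skin and 6.39, 6.39, 6.33 and 6.43 on labelled-null arrays, with control array 3 alone below the rest (difference 0.04, limma adjusted p = 0.9995). Col4a3 differed by -0.01. The X-linked Col4a5 and Col4a6 each differed by -0.01; Xist, the marker of the inactive X chromosome, was high on 2 arrays of each group. Col18a1, whose type XVIII collagen carries endostatin, read 8.49 to 8.65 in control skin and 8.47 to 8.65 on labelled-null arrays, a difference of 0.01.

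**Figure D2:**
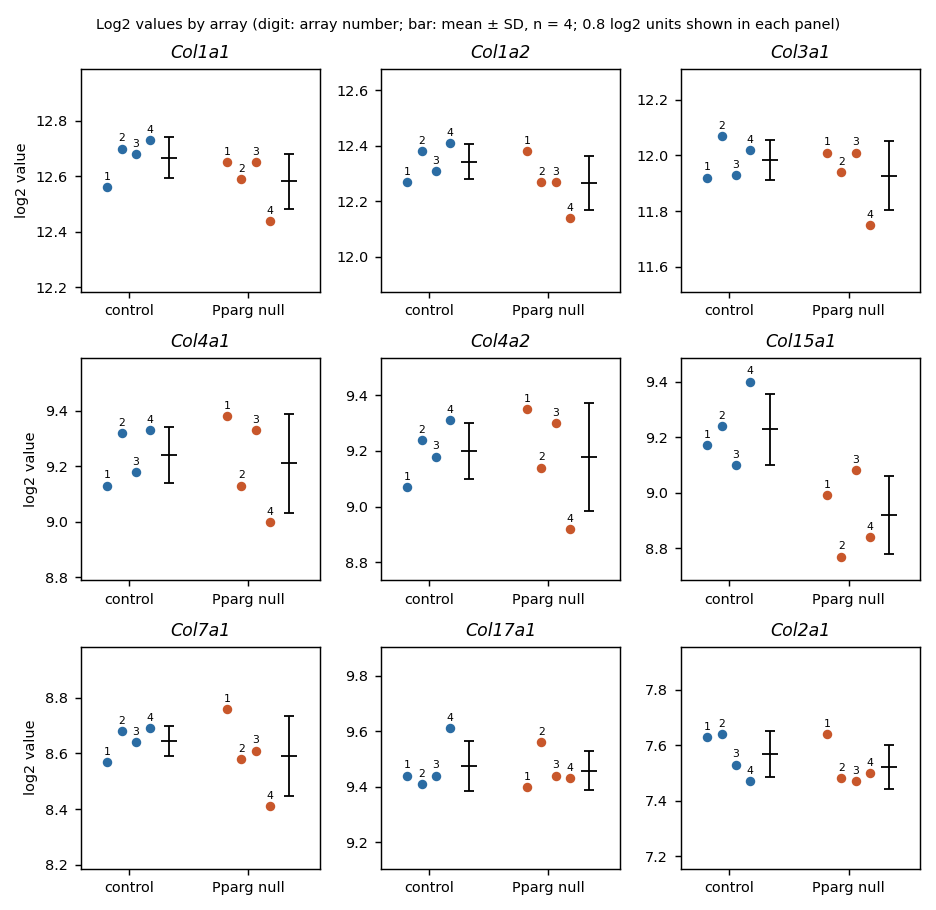
Log2 value on each array (vertical axis, 0.8 log2 units in every panel) of 9 collagen genes, in control and labelled Pparg null skin; digits give the array number, bars the mean ± SD (n = 4). The groups separate for Col15a1 and overlap in the other 8 panels, where labelled-null array 4 is lowest for 6 genes.

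Anchoring collagens of the junction between epidermis and dermis lay close to control. Col7a1 forms the anchoring fibrils and read 8.57, 8.68, 8.64 and 8.69 on control arrays 1 to 4 and 8.76, 8.58, 8.61 and 8.41 on labelled-null arrays 1 to 4. Its difference was -0.05 (95% confidence interval -0.21 to 0.11; limma adjusted p = 0.9995), and without labelled-null array 4 it was 0.01. The SD of Col7a1 was 0.05 in control skin and 0.14 on labelled-null arrays, which held both its highest and its lowest value. Col17a1 spans the membrane of basal keratinocytes at hemidesmosomes and read 9.44, 9.41, 9.44 and 9.61 in control skin and 9.40, 9.56, 9.44 and 9.43 on labelled-null arrays. It differed by -0.02 (95% confidence interval -0.15 to 0.12), with control array 4 and labelled-null array 2 above the rest.

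Cartilage collagens gave 6 of 7 genes below control, beside 49.4% of all genes, with a median log2 difference of -0.01. Among the 6, Col9a3 (-0.003), Col11a1 (-0.003) and Col11a2 (-0.005) lay next to 0. Col2a1, the main fibril collagen of cartilage, read 7.63, 7.64, 7.53 and 7.47 on control arrays 1 to 4 and 7.64, 7.48, 7.47 and 7.50 on labelled-null arrays 1 to 4, so the groups covered the same range. Col9a1, which decorates cartilage fibrils, read 6.79, 6.63, 6.59 and 6.53 in control skin and 6.48, 6.48, 6.42 and 6.58 on labelled-null arrays. Its difference was -0.15 (SE 0.065; limma adjusted p = 0.9995), and labelled-null array 4 overlapped the control values. Its partner chains Col9a2 and Col9a3 differed by -0.03 and 0.00, and Col11a1 and Col11a2 by 0.00 and -0.01. Col10a1, the marker of hypertrophic cartilage, lay under the brightness filter on all 8 arrays (5.18 to 5.46 in control skin, 5.26 to 5.52 on labelled-null arrays) and was not tested.

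Of 9 listed cartilage markers, 4 (Matn1, Matn3, Cnmd and Ucma) lay under the brightness filter. The other 5, Sox9, Acan, Comp, Hapln1 and Snorc, were tested and 0 passed. Sox9, which hair follicles also express, ran from 8.48 to 9.02 in control skin and from 8.26 to 8.80 on labelled-null arrays. For the whole list, the mean log2 value of the 9 ran from 5.80 to 5.99 in control skin and from 5.81 to 5.91 on labelled-null arrays. The cartilage collagens followed another array order than the fibrillar class. Their median deviation from each gene's mean over 8 arrays was highest in each group on control array 1 (0.12) and labelled-null array 4 (0.07). The fibrillar class had -0.04 and -0.18 there, the lowest of each group. Cartilage and bone markers also stood highest on control array 1, at 0.11 and 0.13, and read 0.03 and -0.10 on labelled-null array 4. The part of low brightness in this order was not tested.

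Beaded filament and network collagens gave 4 genes below and 4 above control, with a median of 0.02. The type VI chains Col6a1, Col6a2 and Col6a3, which form microfibrils around dermal cells, differed by -0.04, -0.03 and -0.06. Col8a2, a network collagen known from cornea and vessels, read 6.38, 6.59, 6.33 and 6.24 in control skin and 6.59, 6.61, 6.45 and 6.66 on labelled-null arrays. The difference was 0.19 (SE 0.080; limma adjusted p = 0.9995), and control array 2 overlapped the other group. Its partner Col8a1 differed by 0.10 (95% confidence interval -0.13 to 0.32). Col6a6 read 8.43, 8.60, 8.49 and 8.60 in control skin and 8.63, 8.55, 8.81 and 8.45 on labelled-null arrays, a difference of 0.08, and its other cluster differed by 0.12. Leaving out labelled-null array 3 gave Col6a6 a difference of 0.02, and leaving out labelled-null array 4 gave 0.14. Col6a4 and Col6a5 differed by 0.06 and -0.01.

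Fibril-associated collagens, which sit on the surface of fibrils, gave 2 genes below and 4 above control with a median of 0.01. Col12a1 read 10.52, 10.60, 10.52 and 10.62 in control skin and 10.61, 10.85, 10.60 and 10.51 on labelled-null arrays, a difference of 0.08 (95% confidence interval -0.09 to 0.24) in which labelled-null array 2 stood above the rest; without that array it was 0.01. Col20a1 read 7.28, 7.10, 7.11 and 7.06 and then 7.16, 7.08, 7.07 and 7.09, a difference of -0.04. Col14a1, which is tied to dermal fibrils, differed by 0.01, with a wider spread on labelled-null arrays (SD 0.19) than in control skin (SD 0.07). Col16a1, Col19a1 and Col22a1 differed by at most 0.02 in size.

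The transmembrane and remaining collagens gave 3 genes below and 2 above control with a median of -0.05. Col25a1, a membrane collagen that guides motor nerve growth into muscle, read 6.92, 6.86, 6.94 and 6.82 in control skin and 6.78, 6.76, 6.57 and 6.83 on labelled-null arrays. The difference was -0.15 (SE 0.064; limma adjusted p = 0.9995), and the groups overlapped through control array 4 and labelled-null array 4. Without labelled-null array 3, its lowest, Col25a1 differed by -0.09. Col26a1 read 9.58, 9.51, 9.16 and 9.50 in control skin and 9.32, 9.24, 9.24 and 9.38 on labelled-null arrays, a difference of -0.14 in which control array 3 lay below all 4 labelled-null arrays; without control array 3 it was -0.23. Col13a1, Col23a1 and Col28a1 differed by -0.05, 0.04 and 0.01.

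Arrays of a group differed in how many collagen genes were lowest on them. Labelled-null array 4 gave the lowest value of 16 of 44 collagen genes (36.4%), beside 20.3% of all tested genes, and control array 4 that of 11 (25%, beside 13.6%). By class, labelled-null array 4 was lowest for 6 of 8 fibrillar, 3 of 8 basement membrane, 1 of 2 anchoring, 0 of 7 cartilage, 3 of 8 beaded filament and network, 3 of 6 fibril-associated and 0 of 5 transmembrane and other genes; these shares were not tested against each other. It was lowest for all 10 of Col1a1, Col1a2, Col3a1, Col5a1, Col5a2, Col4a1, Col4a2, Col6a1, Col6a2 and Col6a3, chosen after their values were seen, by 0.05 (Col6a1) to 0.21 (Col5a1) below the next array. On that array the median deviation of the fibrillar class was -0.18, beside -0.08 for the dermal fibroblast markers, 0.04 for the epidermal markers and -0.28 for the skeletal muscle markers; their part in the collagen values was not tested. Without it, 23 of 44 collagen genes lay below control in place of 29, and the fibrillar median was -0.04 in place of -0.07.

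**Figure D3:**
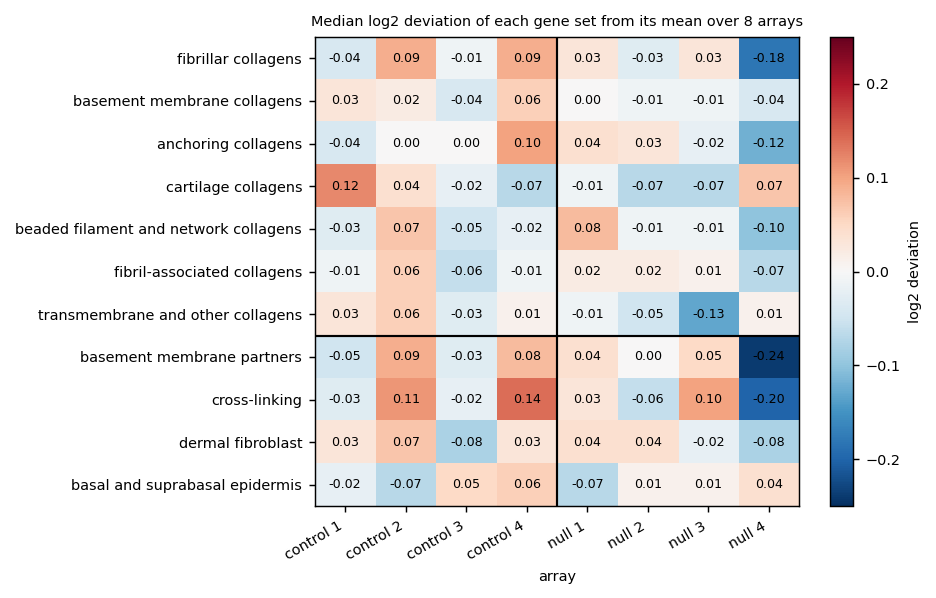
Median log2 deviation of each gene set from its genes' means over 8 arrays, for the 7 collagen classes (above the line) and 4 other lists, by array; red is above and blue below the mean. Labelled-null array 4 is the lowest column for the fibrillar class (-0.18) and for basement membrane partners (-0.24), while cartilage collagens read 0.07 there.

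Chains that share a collagen molecule were compared across the 8 arrays. Of 9 such pairs, 4 had a Pearson correlation past an adjusted p of 0.05 by exact two-sided permutation. Pairs of genes from different collagens were not tested beside them, so a high r was not shown to be particular to partner chains. Col4a1 and Col4a2, the pair with overlapping starts, gave r = 0.97 and rho = 0.98 (exact permutation p = 0.000174 and 0.000397, adjusted over 9 pairs 0.00156 and 0.00357), and r = 0.96 without labelled-null arrays 2 and 4, the 2 farthest from the median of Col4a1. Col5a1 and Col5a2 gave r = 0.92 and rho = 0.93 (exact permutation p = 0.000843 and 0.00223, adjusted 0.00379 and 0.0100), with r = 0.80 without the 2 farthest arrays. Col1a1 and Col1a2 gave r = 0.91 and rho = 0.88 (exact permutation p = 0.00253 and 0.00724, adjusted 0.00569 and 0.0217), with r = 0.75 without the 2 farthest; without labelled-null array 4 alone r was 0.77 and its adjusted permutation p 0.121. Col6a1 and Col6a2 gave r = 0.89 and rho = 0.86 (exact permutation p = 0.00164 and 0.0107, adjusted 0.00491 and 0.0241), with r = 0.81 without the 2 farthest.

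The remaining 5 pairs did not pass. Col9a1 and Col9a2 gave r = 0.67 and rho = 0.45 (exact permutation p = 0.0728 and 0.267, adjusted 0.131 and 0.344), and 0.35 without the 2 farthest arrays. For Col8a1 and Col8a2, r was 0.44 and rho 0.21 (exact permutation p = 0.283 and 0.619, adjusted 0.380 and 0.619), for Col11a1 and Col11a2 0.42 and 0.56 (0.295 and 0.154, adjusted 0.380 and 0.231), and for Col4a3 and Col4a4 0.34 and 0.61 (0.362 and 0.117, adjusted 0.408 and 0.210). Col4a5 and Col4a6, whose starts lie 1343 bases apart on the X chromosome, gave r = 0.01 and rho = 0.31 (exact permutation p = 0.981 and 0.450, adjusted 0.981 and 0.507). Without the 2 arrays farthest from the median on the first gene, r was 0.12, 0.60, 0.58 and 0.71 in these 4 pairs, so the near-0 value of Col4a5 and Col4a6 rested on labelled-null array 3 and control array 3. All pairs share the same 8 arrays, and whatever moves many genes on an array enters each r.

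**Figure D4:**
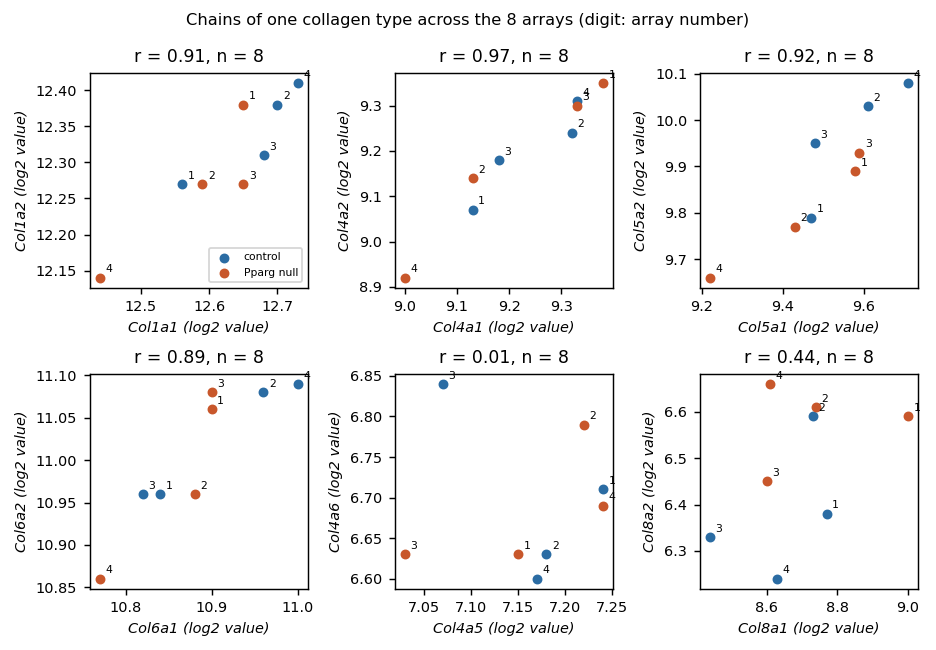
Log2 value of one chain against its partner on each of 8 arrays, for 6 of the 9 pairs, with Pearson's r above each panel. Points of Col4a1 and Col4a2 lie along a line in both groups (r = 0.97), and those of Col4a5 and Col4a6 are scattered (r = 0.01).

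Genes that fold, export, cross-link, degrade or bind collagen showed no change past the threshold. Of 80 listed partner genes 75 had a cluster and 71 were tested, and 0 passed a limma adjusted p of 0.05, beside 0.119% of all tested genes; 6 had an unadjusted p under 0.05, beside 3.61%. Of the 75, 49 lay below and 26 above control, with a median of -0.03. Labelled-null array 4 was lowest for 37 of the 75 (49.3%), beside 20.3% of all tested genes.

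In the folding and modification list, 9 of 16 genes lay below control (median 0.00). Plod3, a lysyl hydroxylase that also adds sugars to collagen, read 9.37, 9.52, 9.42 and 9.63 on control arrays 1 to 4 and 9.26, 9.33, 9.30 and 9.19 on labelled-null arrays 1 to 4. These groups did not overlap, which held for 2 of the 75 partner genes, Plod3 and Itga11, beside 2.32% of all genes. The difference of Plod3 was -0.21 (limma adjusted p = 0.9995). The collagen chaperone Serpinh1 differed by -0.10 and Crtap, a subunit of the prolyl 3-hydroxylase complex, by -0.07. In the export and processing list, 9 of 11 lay below control (median -0.04), with -0.12 for the procollagen protease enhancer Pcolce, -0.20 for Pcolce2 and 0.17 for the protease Tll2. Of the 4 cross-linking genes with a cluster, 3 lay below control (median -0.08); the lysyl oxidases Loxl1, Lox and Loxl4 differed by -0.20, -0.08 and -0.07. Without labelled-null array 4 the differences were -0.06 for Serpinh1, -0.03 for Crtap, -0.11 for Pcolce2, -0.12 for Loxl1, -0.04 for Lox and 0.00 for Loxl4. Other single arrays also moved some of these: Pcolce2 was -0.10 without control array 2, Tll2 was 0.11 without control array 3, Lox was -0.03 without control array 4, and Loxl4 was -0.02 without control array 2.

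Of 12 genes of collagen breakdown and uptake, 8 lay below control (median -0.05). The fibroblast protease Fap differed by 0.19 (limma adjusted p = 0.9995), and the metalloproteinase inhibitors Timp3 and Timp2 by -0.09 and -0.06. Without labelled-null array 4 Timp3 differed by -0.02 and Timp2 by 0.00. Of 9 collagen receptors, 4 lay below and 5 above control (median 0.00). The collagen-binding integrin Itga11 read 6.51, 6.43, 6.38 and 6.52 in control skin and 6.57, 6.67, 6.54 and 6.68 on labelled-null arrays, with no overlap (difference 0.16, limma adjusted p = 0.9995). The integrin Itga1 differed by 0.16 and the type III collagen receptor Adgrg1 by -0.16.

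Of 12 basement membrane partners, 9 lay below control (median -0.06). Nid1, the nidogen that links laminin to type IV collagen, read 10.98, 11.12, 11.02 and 11.12 in control skin and 10.89, 10.89, 11.01 and 10.67 on labelled-null arrays (difference -0.20, limma adjusted p = 0.9995), and the groups overlapped through control array 1 and labelled-null array 3. Nid2 differed by -0.18 and the laminin chain Lamb2 by 0.12; Nid2 was -0.11 without control array 4, and Lamb2 was 0.07 without control array 3. Of 11 hemidesmosome and anchoring partners, 7 lay below control (median -0.02), with -0.09 for the hemidesmosomal integrin Itgb4, -0.09 for Frem2 and 0.04 for Fras1, which sit at the junction below the epidermis. Without labelled-null array 4 Frem2 differed by -0.03.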

How the data were processed

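The deposited log2 values were made by the authors with Expression Console (RMA), as listed in the submitters' processing notes. RMA removes background, makes array distributions equal by quantiles and joins the probes of each cluster. Tool versions and filters: not given in the sources used here. Equalizing the distributions hides a shift of all transcripts together. Array medians lay between 6.93 and 6.96, and pairs of arrays correlated at r = 0.989 to 0.994. The 4 arrays per group limit the precision.

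Clusters with exactly 1 symbol in the platform annotation (21789 of 35556; 1621 had several and 12146 none listed) were used, with symbols updated through a RefSeq gene table of GRCm38.p6 for 21698. A gene was tested where its brightest cluster passed the 30th percentile of values on 4 or more of the 8 arrays, which left 15174 of 19938 genes. Differences are labelled Pparg null minus control by limma 3.58.1 (R 4.3.3; lmFit, eBayes, two-sided, no covariates), with Benjamini-Hochberg adjustment over all tested genes and a threshold of 0.05. The limma step was tested on simulated data. Chain pairs were tested by exact permutation over all pairings of 8 arrays. Array values were given for Col1a1, Col1a2, Col3a1, Col4a1, Col4a2, Col7a1, Col17a1 and Col2a1, for the 2 members of each class with the smallest p, and for members whose groups did not overlap; of each partner list the 3 tested genes with the smallest p were named. Where Plod3, Itga11 and Nid1 are given by array, they were singled out after their values were seen. The members, classes and lists were chosen with earlier results of these data known. Alternatives were other filters, scalings, priors, array weights, a replicate block, averaged clusters, Xist as a covariate, and leaving out arrays. Lists of bone (4 of 7 markers found, median difference -0.03) and Schwann cell markers (3 of 5, median -0.01) were also measured.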

Additional observations from a re-analysis of the deposited data

Results flagged for a closer look

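Of 146 sets of 4 values, 8 held 1 array far from the other 3, where chance gives about 7.3, or 1 in 20. The gap is the distance to the nearest other array as a share of the group's range. Control array 3 gave Col4a4 a value of 6.20, where the others had 6.39 to 6.40 (gap 0.945). Control array 4 gave Col6a4 a value of 5.75, where the others had 6.03 to 6.08 (gap 0.836). On labelled-null array 4, Col6a1 read 10.77 against 10.88 to 10.90 (gap 0.843), Col11a2 read 7.49 against 7.34 to 7.35 (gap 0.889), and the median deviation of the fibril-associated class was -0.07 against 0.01 to 0.02 (gap 0.831). Col27a1 had 8.36 on labelled-null array 1, the others 8.27 to 8.28 (gap 0.852). Among partner genes, the lysyl oxidase Lox had 10.98 on control array 4, the others 10.76 to 10.79 (gap 0.881), and the integrin Itga1 had 8.90 on labelled-null array 3, the others 8.75 to 8.77 (gap 0.855).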

How the results depend on the processing

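The count of collagen genes past the threshold stayed 0 under every alternative fit and was 4 at an unadjusted p under 0.05; that of partner genes stayed 0. Over all genes the count of 18 became 1 with the replicate block and 11 with Xist as a covariate, and 3 to 15 without 1 array. Deviations of arrays with 1 replicate number correlated at r = -0.31, 0.20, 0.05 and -0.03. Arrays of unlike number were not compared, so these values do not settle whether the numbers mark pairs. Without 1 array the number of collagen genes lower than control ran from 21 to 30, the median difference from -0.10 to -0.04 (fibrillar), -0.03 to 0.01 (basement membrane), -0.05 to 0.00 (anchoring) and -0.06 to 0.02 (cartilage), and 3 to 4 chain pairs passed. Of 44 collagen genes, 18 kept their sign in all 18 alternatives, Col15a1, Col1a1, Col1a2 and Col5a2 among them. The filters, the prior and the replicate block could not move these differences, and averaged clusters could move only genes with several clusters. Differences near 0 changed sign: Col4a2 (0.02) and Col20a1 (0.01) leaving out both control array 1 and labelled-null array 4, Col17a1 (0.01) with array weights, and the r of Col4a5 and Col4a6 (-0.07) with cyclic loess. Without 1 array, Col4a1 ran from -0.09 to 0.04, Col4a2 from -0.08 to 0.06, Col4a4 from -0.01 to 0.06, Col7a1 from -0.11 to 0.01, Col17a1 from -0.05 to 0.03, Col20a1 from -0.06 to 0.01 and the r of Col4a5 and Col4a6 from -0.27 to 0.57. The cause of these changes was not tested.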
